A study of Macaca mulatta with 16 samples.

Results

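The imprinted 14q32 miRNA cluster was examined in the fetal rhesus monkey retina at 50 days gestational age. Members were taken by name: an miRNA belonged if its number was one of 45 numbers known from the cluster, whatever its letter or arm. Of these numbers, 36 had an entry in the deposited table and 9 were not analysed here. Members made up 49 of the 339 miRNAs listed, and 38 of them passed the filter of a mean of at least 5 TPM, the normalised unit of the table, over all libraries that was needed for testing. The other 11 members were low and are described at the end by their values.

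The cluster lies in the DLK1-DIO3 domain, on the long arm of chromosome 14 in humans and on chromosome 7 in the rhesus monkey. In mammals studied so far, the protein-coding genes DLK1, RTL1 and DIO3 of this domain are transcribed mainly from the paternal chromosome, whereas the miRNAs are cut from long noncoding transcripts, including MEG3, that come from the maternal chromosome. Many miRNAs of the cluster are abundant in the developing brain and in neurons. Each hairpin precursor is cut into a duplex whose arms, named 5p and 3p, may both be retained or may differ greatly in amount, so members that share a transcript, or even a hairpin, can still differ in level.

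Punches of the retina of normal, untreated fetuses were taken temporally, at the presumptive fovea, and at the matching nasal place across the optic nerve head. Small RNA was sequenced from 3 temporal and 3 nasal samples at 50 days, and mRNA from samples of both regions at 50, 90 and 150 days. At 50 days a punch reached beyond the foveal anlage, which limits it as a sample of the fovea. The labels number the samples of each region without tying a number to an animal, so the p-values measure the spread between these samples, which may in part be technical.

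The 6 small RNA libraries summed to between 178383 and 358430 TPM over the miRNAs listed, and read depth is unknown because the values had been normalised and rounded to whole numbers. For comparison each library was divided by a median-ratio size factor, which ranged from 1.09 to 1.36 in temporal and from 0.680 to 1.12 in nasal libraries. Nasal library 2 stood apart: miR-126, an endothelial miRNA, was at 551 TPM there and at 21 to 42 TPM in the other 5 libraries, and miR-143-3p, abundant in mural and mesenchymal cells, was at 288 TPM against 2 to 5 TPM. Among mRNA markers at 50 days, for which the table holds the authors' mean per region, the summed level of the 9 retinal markers found in the table was 1097 temporally and 1086 nasally. The 7 mesenchymal and mural markers were all higher nasally (sums of 133 temporally and 185 nasally), with COL3A1 at 0 temporally and 13.6 nasally and PDGFRB and ACTA2 well above 0 in both, and the 6 pigment epithelial markers summed to 28.6 and 42.4, 4 of them being higher nasally and RPE65 and TTR higher temporally. The optic nerve astrocyte markers GFAP (0.200 and 1.33) and PAX2 (0.601 and 3.52) were both higher nasally. Lens and muscle markers had the larger sums temporally. The 4 lens markers summed to 39.1 temporally and 34.4 nasally, and the 3 muscle markers to 8.36 and 4.06, with 1 of each list higher nasally. The 4 blood markers summed to 0.377 and 6.28, and the endothelial marker CDH5 was at 0 temporally and 1.24 nasally, whereas KDR, also expressed by retinal progenitors, was at 854 and 582. The part of such cells in the differences below was not tested, and in these bulk samples fewer cells of a type and less RNA per cell cannot be told apart.

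The cluster took a small share of the miRNA pool on both sides. Its members summed to 5976, 8379 and 9592 TPM in temporal libraries 1 to 3 and to 5074, 9570 and 5684 TPM in nasal libraries 1 to 3. As a share of each library's listed TPM this was 1.93%, 2.37% and 2.82% temporally and 2.84%, 2.67% and 2.38% nasally. The mean shares of 2.37% ± 0.447 and 2.63% ± 0.233 (SD, n = 3 each) differed by less than the temporal SD, and the ranges of the regions overlapped. After the median-ratio scaling used below, the mean sums were 6537 (SD 1315) temporally and 7915 (SD 550) nasally. These differed by more than either SD, although the ranges (5462 to 8002 and 7462 to 8527) still overlapped. No test was made of the sums. The pool was uneven, since miR-370-3p, miR-381-3p, miR-543-3p and miR-409-3p held 53.9% to 61.5% of the summed TPM in temporal and 59.3% to 65.3% in nasal libraries.

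The members did not shift together between the regions. Under limma, with Benjamini-Hochberg adjustment over all 283 tested miRNAs, 5 members were higher and 4 lower temporally at an adjusted p of 0.05 or less. These 9 are 23.7% of the 38 tested members, whereas 28.3% of all tested miRNAs were called, 13.4% as higher and 14.8% as lower temporally. The median log2 fold change (temporal over nasal) was 0.04 over the members, with 20 positive and 18 negative values, and 0.01 over all tested miRNAs. An unadjusted p below 0.05 was reached by 16 members and by 119 of all tested miRNAs. Scaled values of the regions did not overlap for 17 members (44.7%), against 44.9% of all tested miRNAs. Without rescaling, the median of all miRNAs moved from 0.01 to 0.52 and 96.2% of all calls, instead of 47.5%, were higher temporally. The same setting gave 10 members higher and 0 lower, and moved the members' median to 0.59. Directions below are therefore relative to the typical miRNA of the library.

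**Figure D1:**
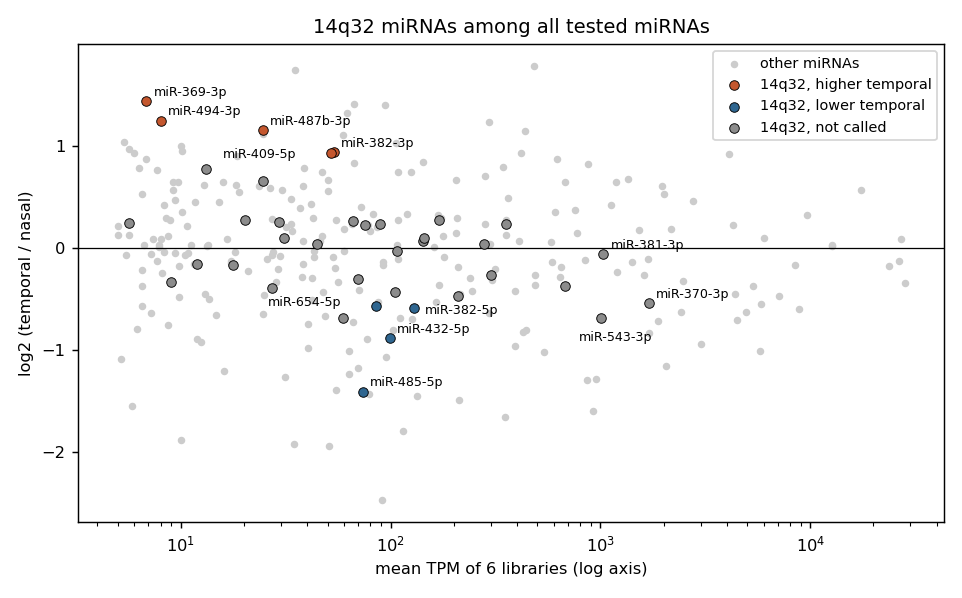
Log2 fold change, temporal over nasal after median-ratio scaling, of each of the 283 tested miRNAs against its mean TPM over the 6 libraries (log axis). The 38 tested members of the cluster lie around 0 (median 0.04), the 5 called higher temporally lie toward low levels, and the 4 called lower temporally, which were no longer called without rescaling, lie between a mean of 73.5 and 129 TPM.

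Of the members that were higher in the temporal retina, the largest difference belonged to miR-369-3p, which in human cells binds an AU-rich element of the TNF mRNA. It was deposited at 11, 14 and 9 TPM temporally and at 2, 3 and 2 TPM nasally, so every temporal library exceeded every nasal one although the level was low throughout. The log2 fold change was 1.43 (SE 0.191, limma adjusted p = 0.00237), or 2.70-fold on the scale of log2(TPM + 1), which understates the difference of low miRNAs. miR-494-3p stood at 12, 15 and 11 TPM temporally and at 3, 5 and 2 TPM nasally. Its temporal values were likewise all above the nasal ones, and its log2 fold change was 1.24 (SE 0.218, limma adjusted p = 0.00634). Mean TPM was 11.3 temporally and 2.33 nasally for miR-369-3p, and 12.7 and 3.33 for miR-494-3p. The 2 thus passed the filter of 5 TPM only through their temporal libraries, so their presence among the tested members is not independent of their direction. Both remained called when rounding to whole TPM was taken at its worst, each value moved by 0.5 TPM against the difference (log2 fold changes of 1.15 and 1.01).

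miR-382-3p and miR-409-5p, the less abundant arms of their hairpins, were higher temporally at intermediate levels. miR-382-3p was at 58, 96 and 84 TPM in temporal libraries and at 22, 35 and 26 TPM in nasal libraries. The regions were well separated, and the log2 fold change was 0.94 (SE 0.194, limma adjusted p = 0.0102), or 1.91-fold. miR-409-5p was at 76, 73 and 81 TPM temporally and 24, 37 and 22 TPM nasally. Its 3 temporal values were close to each other and all above the nasal values, with a log2 fold change of 0.93 (SE 0.191, limma adjusted p = 0.01002), but without nasal library 3 the adjusted p was 0.0589.

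The fifth, miR-487b-3p, was the least certain of this group. It was deposited at 35, 44 and 34 TPM temporally and at 16, 9 and 9 TPM nasally, again without overlap. The log2 fold change was 1.15, with the widest error of the called members (SE 0.345, limma adjusted p = 0.0388). After scaling, nasal library 1 (23.5 TPM) lay nearer to the lowest temporal library (28.4 TPM) than to nasal library 2 (8.02 TPM). Without nasal library 2 the adjusted p was 0.0670, and it was above 0.05 in 5 of the 6 fits that each left out 1 library.

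**Figure D2:**
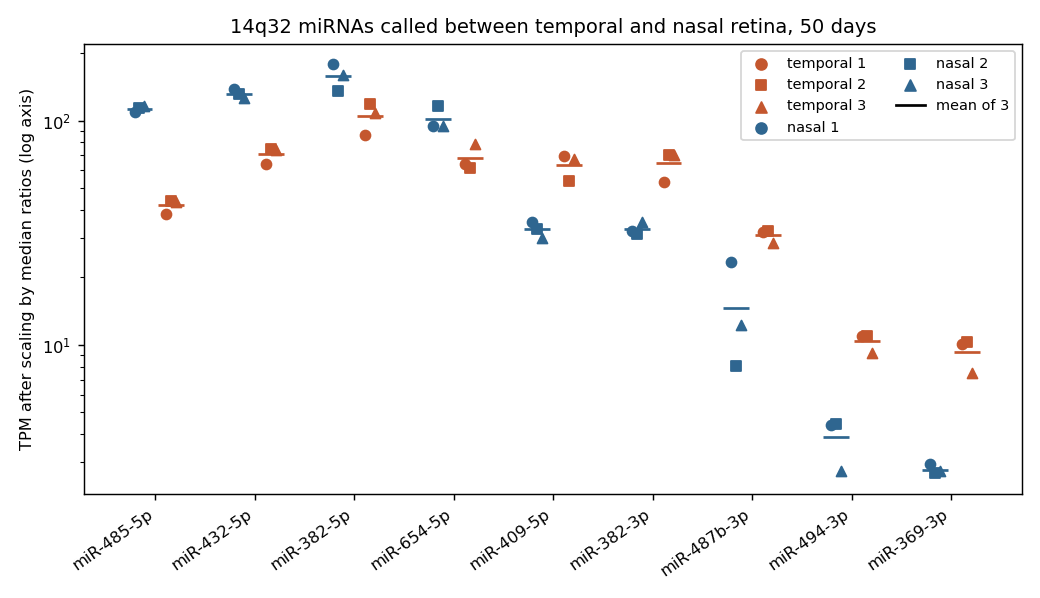
TPM after median-ratio scaling (log axis) of the 9 members called between regions, ordered by log2 fold change; symbols are the 3 temporal and 3 nasal libraries and short lines their means. The regions do not overlap for any of the 9, and miR-485-5p has nasal values from 109 to 116 TPM, the tightest on this axis.

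The members that were lower in the temporal retina were all 5p arms. miR-485-5p, a brake on the synaptic vesicle protein SV2A in rat hippocampal neurons, was deposited at 42, 60 and 52 TPM temporally and at 74, 128 and 85 TPM nasally. It was the only called member of this direction whose regions were also apart before scaling. Scaling brought the libraries of a region close together, at 38.4, 44.0 and 43.4 TPM temporally and 109, 114 and 116 TPM nasally. The log2 fold change of −1.41 (SE 0.164, limma adjusted p = 0.00168), 2.66-fold toward the nasal side, was the largest decrease of any member. It was −0.86 without rescaling, at an adjusted p of 0.050005 that just missed the threshold.

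miR-432-5p, encoded opposite the RTL1 gene, was at 64.0, 74.8 and 74.3 scaled TPM temporally and at 138, 132 and 126 scaled TPM nasally. The regions were clearly apart on this scale, although its deposited values, 70, 102 and 89 against 94, 148 and 92 TPM, overlapped. The log2 fold change was −0.89 (SE 0.1597, limma adjusted p = 0.00634), and −0.33 with an adjusted p of 0.375 without rescaling.

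miR-382-5p and miR-654-5p passed only narrowly. Scaled TPM of miR-382-5p was 85.9, 119 and 108 temporally and 178, 135 and 160 nasally (log2 fold change −0.59, SE 0.189, limma adjusted p = 0.0487). Scaled TPM of miR-654-5p was 64.0, 61.6 and 78.4 temporally and 94.1, 116 and 94.1 nasally (log2 fold change −0.57, SE 0.183, limma adjusted p = 0.0498). Neither pair of regions overlapped on this scale, but the differences were −0.04 and −0.02 without rescaling. With the sample number as a replicate block the adjusted p rose to 0.0639 and 0.0603, and without nasal library 2 miR-654-5p had an adjusted p of 0.139. Leaving out temporal library 1, 2 or 3 or nasal library 3 also ended both calls, and leaving out nasal library 1 ended that of miR-382-5p.

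Setting nasal library 2 aside left 8 of 39 tested members called, 7 of them among the 9 above, and reduced the calls over all miRNAs from 80 to 51. miR-127-5p was then called as well (log2 fold change 0.78, limma adjusted p = 0.0387), where it had just missed the threshold with all libraries (0.65, adjusted p = 0.0513). Without nasal library 3 the count fell to 5 of 39 members (12.8%), and that over all miRNAs to 34 of 291 (11.7%).

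None of the 8 most abundant members was called. miR-370-3p, the most abundant, was deposited at 1250, 1435 and 2335 TPM temporally and at 1152, 2696 and 1310 TPM nasally. The regions overlapped widely, and the log2 fold change of −0.55 had a 95% interval from −1.13 to 0.04 (limma adjusted p = 0.140). It was 0.01 without rescaling, and without temporal library 3 it was −0.81 and called, with an adjusted p of 0.0376. miR-381-3p was at 812, 852 and 1325 scaled TPM temporally and 1035, 961 and 1055 scaled TPM nasally (log2 fold change −0.06, 95% interval −0.52 to 0.39), so the regions overlapped within an error that still allowed a shift of about 0.5 log2 units.

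miR-543-3p was at 572, 1105 and 1190 TPM in temporal libraries and at 680, 1539 and 939 TPM in nasal libraries. After scaling its nasal values (1000 to 1371 TPM) all lay above its temporal ones (523 to 993 TPM), with a log2 fold change of −0.69 and a limma adjusted p of 0.0692. With the replicate block it was called (adjusted p = 0.0198), as was miR-485-3p (log2 fold change −0.69, adjusted p 0.0692 without and 0.0292 with the block). miR-409-3p was at 533, 812 and 785 TPM against 475, 934 and 529 TPM (−0.38, adjusted p = 0.106). Under the fit without rescaling it turned to 0.18.

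The remaining abundant members were not called either. miR-134-5p, which restrains the growth of dendritic spines through Limk1 in rat hippocampal neurons, was at 168, 237 and 235 TPM temporally and at 165, 278 and 170 TPM nasally. Scaled, its 3 nasal values lay above its 3 temporal values, and its log2 fold change of −0.47 narrowly missed the threshold (limma adjusted p = 0.0507). miR-323a-3p was at 289, 398 and 412.1 scaled TPM temporally and at 332, 272 and 322 scaled TPM nasally, with overlap that the deposited values did not show (0.23, adjusted p = 0.382). miR-127-3p, which in the mouse is antisense to Rtl1 and cleaves its mRNA, was at 254, 346 and 371 TPM against 174, 392 and 264 TPM (−0.27, adjusted p = 0.328). miR-379-5p, from the first hairpin of the larger stretch, was at 272, 367 and 363 TPM against 171, 305 and 202 TPM (0.04, 95% interval −0.30 to 0.37). Its scaled values, 249 to 303 TPM temporally and 251 to 276 TPM nasally, were nearly the same on both sides.

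The members called higher temporally all lay below 100 TPM. Of the 14 tested members at 100 TPM or more, 0 were called higher temporally and 1 lower, against 17 and 22 of all 118 tested miRNAs at this level. At 20 to under 100 TPM 3 of 17 members were called higher and 3 lower (12 and 12 of all 91), and at 5 to under 20 TPM 2 of 7 members were called higher and 0 lower (9 and 8 of all 74). Those 2, miR-369-3p and miR-494-3p, passed the filter only through their temporal libraries. Across the 38 members the log2 fold change had a Spearman correlation of −0.46 with the mean level. Over all 283 tested miRNAs it was −0.15. The points share the same 6 libraries and their normalisation, and some of the lowest members passed the filter through temporal libraries alone, so these are descriptions only. Members varied slightly less between libraries of a region than miRNAs at large, with a median SD of 0.18 (temporal) and 0.20 (nasal) log2 units against 0.21 and 0.26. Within the temporal region, library 1 was the lowest of the 3 for 25 of the 38 members, compared with 83 of the 283 tested miRNAs.

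Along the chromosome, called members of both directions were interspersed. The RefSeq annotation of T2T-MMU8v2.0 placed 36 of the 37 hairpin names on chromosome 7, and miR-323b was not placed. The hairpins fall into a shorter stretch near MEG3, from miR-493 to miR-370, and a longer one from miR-379 to miR-656, which in rat neurons is induced by activity through Mef2. In the shorter stretch 7 of 11 members were tested, of which 0 were called higher and 1, miR-432-5p, lower, with a median log2 fold change of −0.31. In the longer stretch 31 of 38 members were tested, 5 were called higher and 3 lower, and the median was 0.06. The neighbouring hairpins miR-382, miR-134, miR-668 and miR-485 held the largest decrease and, on miR-382, a member of each direction. Whether the stretches differ was not tested. miR-329 has 2 hairpin copies in the annotation, so its level cannot be assigned to either.

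**Figure D3:**
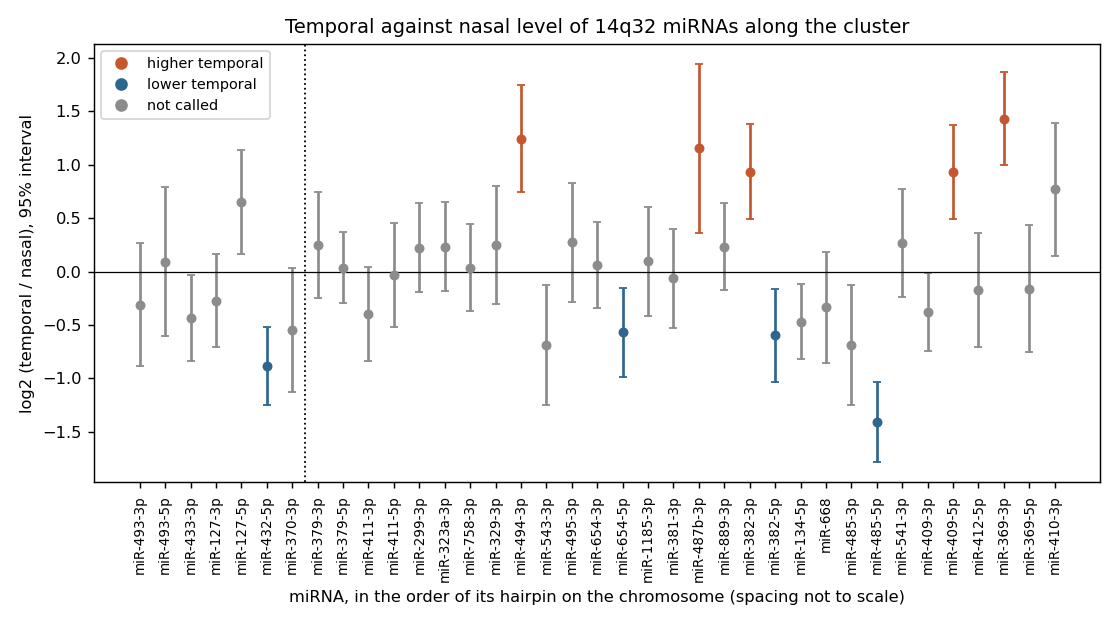
Log2 fold change (temporal over nasal after scaling, 95% interval) of each tested member placed on chromosome 7, in hairpin order (spacing not to scale). The unplaced miR-323b-3p is not shown. The dotted line parts the stretch near MEG3 from that of miR-379 to miR-656. Members called higher (5) and lower (4, none of them called without rescaling) are interspersed with uncalled members. Some uncalled members, such as miR-543-3p, have unadjusted intervals that exclude 0. Both arms of miR-382 are called in opposite directions.

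Most called 5p arms were lower temporally, and all called 3p arms were higher. Of 12 tested 5p arms, 1 was called higher and 4 lower temporally, with a median log2 fold change of −0.17. Of 25 tested 3p arms, 4 were called higher and 0 lower, with a median of 0.22. Outside the cluster 16 of 113 tested 5p arms were called higher and 16 lower, and 14 of 99 tested 3p arms were called higher and 17 lower. The lower calls among 5p arms were lost without rescaling, and no test was made of the arms as groups.

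The balance of the arms was therefore compared within each library, as log2(5p + 1) − log2(3p + 1), a measure from which the scaling of the library and the amount of the hairpin largely cancel. Both arms averaged at least 5 TPM for 62 hairpins, 9 of them in the cluster. The balance differed between regions for 6 of these 9 (66.7%) at a limma adjusted p of 0.05 or less, whereas 46.8% of all 62 hairpins were called, and 23 of the 53 outside the cluster. Regions did not overlap for 7 of the 9, against 59.7% of all 62. In the cluster miR-382, miR-369, miR-485 and miR-654 were shifted toward the 3p arm temporally, and miR-409 and miR-127 toward the 5p arm. All 6 calls held with the replicate block.

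For miR-382 the ratio of 3p to 5p TPM was 0.617, 0.593 and 0.646 in temporal libraries and 0.182, 0.230 and 0.222 in nasal libraries. The 3p arm thus made up a far larger part of the hairpin's TPM temporally, in all 3 libraries. The balance differed by −1.52 log2 units (SE 0.206, limma adjusted p = 2.4e-05), and the arms themselves moved apart, 3p higher by 0.94 and 5p at −0.59. miR-369 behaved likewise at a low level, with a balance (5p minus 3p) of 0, 0.26 and 0.49 log2 units temporally and 2.12, 1.46 and 1.74 nasally. Its difference was −1.52 (SE 0.229, adjusted p = 7.2e-05), or −1.14 when rounding was taken at its worst, and it came mainly from the 3p arm, since the 5p arm had a log2 fold change of −0.16. That 3p arm passed the filter only through the temporal libraries.

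The shift of miR-409 and miR-127 was toward the 5p arm. For miR-409 the 3p arm exceeded the 5p arm 7.01-, 11.1- and 9.69-fold temporally and 19.8-, 25.2- and 24.0-fold nasally. The ranges were far apart, and the balance differed by 1.30 log2 units (SE 0.233, limma adjusted p = 0.00044). For miR-127 the 3p arm exceeded the 5p arm 7.47-, 9.89- and 11.6-fold temporally and 15.8-, 16.3- and 24.0-fold nasally, a difference of 0.89 (SE 0.240, limma adjusted p = 0.0063). Neither arm of miR-127 was called by its own level.

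miR-485 and miR-654 showed smaller shifts. For miR-485 the 5p to 3p ratio was 1.05, 0.870 and 0.963 temporally and 2.00, 1.21 and 1.67 nasally. Both arms were near equal temporally while 5p prevailed nasally, and the difference was −0.72 (SE 0.224, limma adjusted p = 0.0140). It was no longer called without temporal library 2 (adjusted p = 0.0883). For miR-654 the 3p to 5p ratio was 1.93, 2.21 and 2.03 temporally and 1.58, 1.18 and 1.23 nasally (difference −0.63, SE 0.206, limma adjusted p = 0.0165). This call was lost without temporal library 2, nasal library 2 or nasal library 3, at adjusted p of 0.0787, 0.0702 and 0.0728.

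Taking the less abundant arm from the mean over all 6 libraries, which the shift itself enters, that arm had the higher relative share temporally in 5 of the 6 called and 6 of the 9 tested hairpins of the cluster. Over all hairpins this was so for 15 of 29 called and 32 of 62 tested. For miR-485 the order of the arms is itself unsettled, as they were near equal temporally. The other 3 hairpins of the cluster were not called. miR-493 had 5p to 3p ratios of 2.33, 2.27 and 2.22 temporally and 1.39, 2.06 and 1.75 nasally, without overlap (0.41, 95% interval −0.04 to 0.86, limma adjusted p = 0.123). miR-411 had 5p to 3p ratios of 5.43, 4.21 and 3.96 temporally and 4.13, 2.86 and 3.50 nasally, with overlap. Its difference of 0.38 (adjusted p = 0.163) ranged from 0.25 to 0.50 when single libraries were left out and was called without nasal library 1 (adjusted p = 0.0416). miR-379 had 5p to 3p ratios of 45.3, 40.8 and 51.9 temporally and 42.8, 76.3 and 50.5 nasally, with a difference of −0.13 (adjusted p = 0.679).

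**Figure D4:**
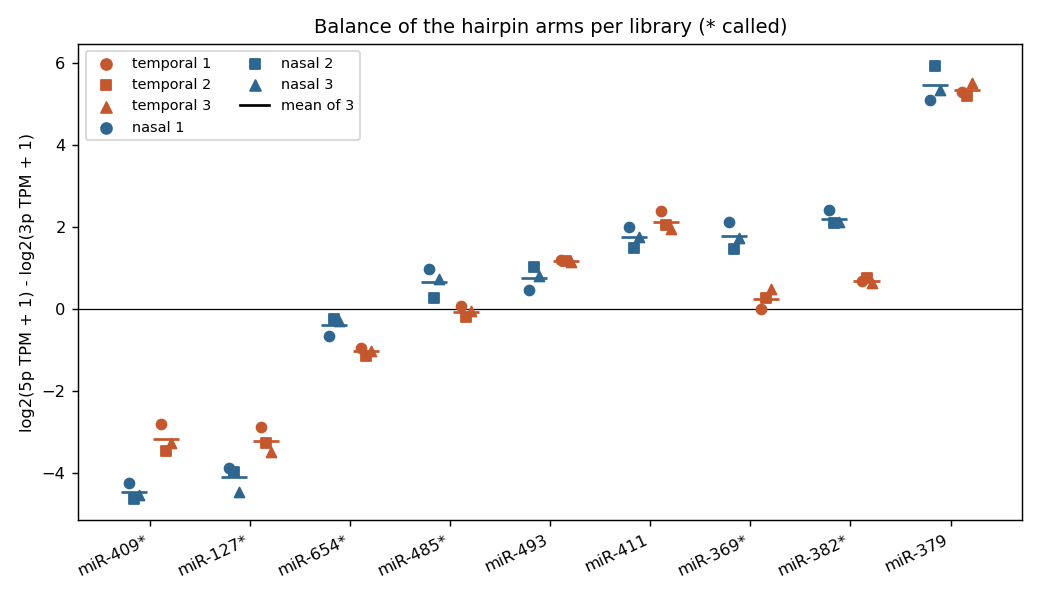
Balance of the arms, log2(5p TPM + 1) − log2(3p TPM + 1), in each of the 3 temporal and 3 nasal libraries for the 9 hairpins of the cluster with both arms at a mean of 5 TPM or more; short lines are means and asterisks mark the 6 called hairpins. The regions are widest apart for miR-382 and miR-369 (both −1.52) and for miR-409 (1.30), and they overlap for miR-411 and miR-379.

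The 11 members below the filter had no value above 12 TPM. miR-323a-5p was at 1, 2 and 2 TPM temporally and at 3, 12 and 6 TPM nasally, the only one of them with all nasal values above the temporal ones. The opposite was seen, after scaling, for 6 of the 11. Among the 45 untested miRNAs outside the cluster all temporal values were above the nasal ones for 7 and below them for 12. Examples in the cluster were miR-380-3p at 6, 7 and 7 TPM temporally and at 2, 1 and 1 TPM nasally, and miR-154-5p at 4, 3 and 2 against 0, 1 and 0 TPM. miR-136 and miR-431, which like miR-127 lie opposite RTL1, did not exceed 4 TPM in any library. At such levels rounding by up to 0.5 TPM can be a large part of the value, and these members were left untested.

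The protein-coding genes of the domain were examined in the mRNA table of the same tissue, where each region has only the authors' mean at 50 days and 1 library at the later ages, so these values have no replicate check. DIO3, the enzyme that inactivates thyroid hormone, was the one gene of the domain above 10 CPM, the unit of the mRNA table, at 50 days, with authors' means of 10.9 temporally and 18.0 nasally. At 90 days it was at 98.4 CPM temporally and 164 CPM nasally, a nasal to temporal ratio of 1.67 (95% interval of counting error alone 1.57 to 1.76). At 150 days it was at 0.381 and 2.69 CPM, a ratio of 7.07 (3.21 to 18.4) from 7 and 54 reads. DIO3 was thus higher nasally at all 3 ages. The 90-day libraries also differed in the optic nerve astrocyte markers GFAP (0.152 CPM temporally and 15.5 CPM nasally) and PAX2 (0.101 and 5.97 CPM). CDH5 (0.556 and 12.9 CPM) and COL3A1 (0.0506 and 3.43 CPM) were higher nasally too. KDR and the mesenchymal marker TWIST1 were slightly higher temporally. At 150 days GFAP (19.4 and 15.3 CPM) and PAX2 were higher temporally. The part of such cells in the values of the domain's genes was not tested.

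DLK1, a Notch-like ligand at the other end of the domain, was near the limit of detection, at authors' means of 0.361 and 0.462 at 50 days. Its regional order differed between ages, with 26 temporal and 9 nasal reads at 90 days and 3 and 21 reads at 150 days. The gene identifier of RTL1, which the deposited table names mml-mir-431, did not exceed 0.282 in any column, and MEG3, MEG8 and MEG9 were not analysed here. Of the flanking genes, BEGAIN had authors' means of 0.869 temporally and 0.954 nasally at 50 days and was at 33.9 and 28.4 CPM at 150 days. WDR25 lay between 6.24 and 15.8 in all columns. The mRNA table also lists 44 hairpins of the cluster, none above 0.867 at 50 days, and only mml-mir-770 passed 1 CPM later, at 2.83 CPM temporally and 1.22 CPM nasally at 90 days and at 2.34 and 1.45 CPM at 150 days.

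Of 4 tested miRNAs of other imprinted loci, from 2 hairpins, miR-296-3p was called lower temporally (log2 fold change −0.81), while miR-296-5p, from the other arm of the same hairpin, had 0.78 and was not called (limma adjusted p = 0.0567). miR-335-5p had 0.74 and miR-335-3p 0.05, and neither was called. Among cell type miRNAs, 2 of 3 tested for photoreceptors were called higher temporally (miR-182 at 1.78 and miR-96 at 1.74), as was 1 of 6 for neurons (miR-9-3p at 0.74, with a list median of 0.25). For the pigment epithelium 1 of 3 was called lower (miR-204-3p at −1.39), and for blood the 1 tested, miR-486-5p, was called lower (−1.01). Their part in the differences of the cluster was not tested.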

How the data were processed

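RNA of the same punches was used by the authors for small RNA and mRNA libraries. The authors mapped small RNA to miRBase 20, and the TPM they deposited are whole numbers after rounding and are treated as a score. The miRNA aligner and build were not given in the sources used here. In the mRNA table the deposited unit is CPM at 90 and 150 days, whereas the 50-day columns hold a signal that is the authors' mean of each region, close to the CPM scale. These values were made with Bowtie2 2.2.2, Tophat 2.0.11 and Cufflinks 2.2.1. Whole reads were recovered from CPM in 100% of values within 0.01 reads (17429349 to 19851990 reads per library); with 1 library per region and age, no count test was run for the genes of the domain, and ratios have 95% Clopper-Pearson intervals for counting error alone. The miRNA table also holds fold changes and p-values of the authors' edgeR comparison, which were not used. All columns with sample values were used.

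Groups were taken from the labels. After median-ratio scaling, limma 3.58.1 in R 4.3.3 (eBayes, trended variance) was run on log2(TPM + 1) of the 283 miRNAs whose mean was 5 TPM or more, and the threshold was an adjusted p of 0.05. Hairpin arms were paired by name. On simulated data the test of miRNA levels called 45.0%, 95.0% and 100% of miRNAs given log2 changes of 0.5, 1 and 2 (20 each). It called 0% of the 223 left unchanged. The test of arm balance called 100% of 8 simulated hairpins given a log2 change of 2. It also called 3.70% of the 54 hairpins left unchanged. Libraries with the same number deviated together from the means of their regions (correlations of 0.50, 0.16 and 0.12 for numbers 1, 2 and 3, all above 0.1). The labels also carry sample codes of unstated meaning, and consecutive codes would instead pair temporal 1, 2 and 3 with nasal 3, 1 and 2 (correlations of −0.15, −0.19 and 0.22). Temporal 3 thus correlated more with nasal 2 than with nasal 3, and the data do not single out a pairing by number. The numbers mark only a possible pairing, and a fit with a replicate block was set beside the main one.

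Members, lists, tests and the rule for naming were chosen with earlier results of these data known. Values per library were given for called members, the 8 most abundant, hairpins with both arms tested and examples of the rest. Python 3.11.15, pandas 2.3.3, NumPy 2.4.6, SciPy 1.17.1 and Matplotlib 3.10.9 were used. Mature sequences, seeds and GC content were not analysed here.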

Additional observations from a re-analysis of the deposited data

How the results depend on the processing

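The alternatives were another scaling, pseudocount, filter or variance model, the replicate block and the omission of each library, and a test of rounding was added after seeing the data. miR-369-3p, miR-494-3p and miR-382-3p and the arm balance of miR-382, miR-369, miR-409 and miR-127 kept their calls under every alternative run on them. Without rescaling, 10 members were called higher and 0 lower, the members' median was 0.59, and miR-127-3p (0.28), miR-134-5p (0.087), miR-369-5p (0.36), miR-370-3p (0.014), miR-381-3p (0.49), miR-409-3p (0.18), miR-411-3p (0.14), miR-411-5p (0.52) and miR-493-3p (0.24) turned positive. With upper quartile scaling the median was −0.0041 and miR-379-5p −0.0057, and with a pseudocount of 5 there were 2 lower calls and the arm balance of miR-379 was 0.14. A filter of 1 TPM, or none, gave 15 calls among 49 tested members (30.6%), 10 of them higher, against 100 among all 339 miRNAs (29.5%). Low members were then tested, and 1 named member that the main fit had tested without calling was also called. A filter of 20 TPM left 7 called members of 31 (22.6%), 3 of them higher, against 63 of 209 miRNAs (30.1%). It left 19 called hairpins over the whole table. The replicate block gave 10 called members of 38, 7 of them among the main 9, and 90 calls over all miRNAs; beyond the 4 calls named in the report it changed no call of a named member or hairpin. A block by consecutive sample codes, added after seeing the data, gave 6 called members, all among the main 9, 54 calls over all miRNAs and the same 6 called hairpins. At worst rounding miR-487b-3p, miR-382-5p and miR-654-5p lost their calls (adjusted p of 0.0568, 0.0611 and 0.0642).

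Leaving out 1 library at a time gave 5 to 11 called members (3 to 6 higher, 2 to 5 lower), 34 to 107 calls over all miRNAs, 4 to 7 called hairpins of the cluster and 22 to 36 of all, and medians of −0.027 to 0.088. The fold changes that turned sign ranged from −0.39 to 0.075 for miR-369-5p, −0.027 to 0.13 for miR-379-5p, −0.27 to 0.088 for miR-381-3p, −0.17 to 0.16 for miR-411-5p, −0.15 to 0.39 for miR-493-5p and −0.047 to 0.17 for miR-654-3p, and from −0.31 to 0.11 for the arm balance of miR-379; none of these was called. The causes were not tested. A GC correction, alone or with the block, was not run because mature sequences were not used here. Rounding to whole TPM, which moves a value by up to 0.5 TPM, can be a large part of the value for members below about 5 TPM. At its worst it also ended the calls of the more abundant miR-487b-3p, miR-382-5p and miR-654-5p.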
